A study of Mus musculus with 8 samples.

Results

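The 9 genes described here were the anterior members of 2 Hox clusters, Hoxa2, Hoxa3, Hoxa4, Hoxa5, Hoxa6 and Hoxa7 of HoxA and Hoxd3, Hoxd4 and Hoxd8 of HoxD, of 28001 genes in the tables. They were chosen by name from the gene symbols of the deposited tables, with no measured value in the rule. Other HoxA and HoxD genes, those numbered 9 and above among them, served as neighbours. Single-cell RNA was counted as UMIs (unique molecular identifiers, 1 per captured transcript) in 8 libraries of embryonic mouse forelimb, strain C57BL/6J. Every dam had been gavaged with 7.5 mg tamoxifen at embryonic day (E) 10, which activates a CreERT2 recombinase knocked into the Hic1 gene and switches on tdTomato from Rosa26. In the 6 sorted libraries, from Hic1CreERT2/CreERT2;Rosa26 LSL tdTomato/tdTomato embryos, tdTomato+ mesenchymal progenitors (MPs) were taken at E11.5, E12.5, E13.5 and E14.5 from the forelimb, and at E16.5 separately from a proximal segment around the elbow and a distal segment with the distal zeugopod and the autopod. The remaining 2 libraries, whole 1 and whole 2, were replicates of E11.5 forelimb labelled as both tdTomato+ and tdTomato- cells. By the study's methods these were all lineage-negative cells (without endothelial or blood cell surface markers) of Hic1CreERT2; R26tdTomato limbs. The methods use that name for progeny homozygous for both alleles. Each sorted group was 1 library pooled from several embryos, so it had no replicate. Levels are given as CPM, a gene's UMIs scaled to a common total of 1000000. Both copies of Hic1 carried CreERT2 in the sorted embryos, and the label marks only cells in which Hic1 was active in the day or so after tamoxifen, together with their descendants.

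Hox genes encode homeodomain transcription factors that lie in clusters in the order in which they are used along the body axis. In the limb, HoxA and HoxD genes are switched on in an early phase that patterns the proximal limb, and the most posterior genes, of which Hoxa13 and Hoxd13 are the last, are switched on again in the distal limb that forms the hand. The anterior genes are best known outside the limb: Hoxa2 and Hoxa3 pattern the pharyngeal arches, Hoxa5 is needed in the lung and the cervico-thoracic skeleton, Hoxa4, Hoxa6 and Hoxa7 help set vertebral identity, Hoxd3 and Hoxd4 act on the upper neck vertebrae, and Hoxd8 belongs to the early, proximal phase of HoxD in the limb. Hox proteins bind DNA with TALE cofactors of the Meis, Pbx and Pknox families, and anterior Hox genes are known targets of retinoic acid.

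In the GENCODE vM21 annotation of GRCm38, the 6 HoxA genes lay on the minus strand of chromosome 6, from Hoxa2 (chr6:52162417-52164831) to Hoxa7 (chr6:52214491-52221854), with Hoxa5 at chr6:52201754-52204587. The 3 HoxD genes lay on the plus strand of chromosome 2, Hoxd8 at chr2:74704615-74707933, Hoxd4 at chr2:74711929-74729160 and Hoxd3 at chr2:74711927-74748442. Hoxd3 shared 62.3% of its exonic bases with same-strand genes, Hoxd4 among them, and Hoxd4 shared 52.3% with Hoxd3 and 1 other gene. How reads from the shared bases were counted is not known, so the UMIs of Hoxd3 and Hoxd4 are uncertain. Hoxa2 shared 15.0% and Hoxa3 8.01% with a same-strand transcript, and Hoxa4, Hoxa5, Hoxa6, Hoxa7 and Hoxd8 shared none. Promoter sequences, 250 bases before to 50 after the start, were available from RefSeq (GRCm38.p6) for 8 of the 9 genes. For Hoxa7 and Hoxd4 the start used lies inside the gene span given above and not at its outer end. The promoters of Hoxa5, Hoxa7, Hoxd4 and Hoxd8 are shown because these genes had the highest levels and carry most of the comparisons below. Capitals mark matches on either strand to AGGTCA, a half-site of retinoic acid receptors, to TTTATG, the core bound by Cdx factors, or to TGACAG and TGATNNAT, bound by Meis/Pknox and by Pbx-Hox pairs.
Hoxa5 promoter, chr6:52204538-52204837 (- strand): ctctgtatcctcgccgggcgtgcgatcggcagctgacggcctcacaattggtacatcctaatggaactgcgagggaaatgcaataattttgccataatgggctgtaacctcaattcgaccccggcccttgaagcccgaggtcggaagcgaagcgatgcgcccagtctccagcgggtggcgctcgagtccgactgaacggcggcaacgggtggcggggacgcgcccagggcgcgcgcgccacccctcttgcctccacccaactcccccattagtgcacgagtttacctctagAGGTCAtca
Hoxa7 promoter, chr6:52218524-52218823 (- strand): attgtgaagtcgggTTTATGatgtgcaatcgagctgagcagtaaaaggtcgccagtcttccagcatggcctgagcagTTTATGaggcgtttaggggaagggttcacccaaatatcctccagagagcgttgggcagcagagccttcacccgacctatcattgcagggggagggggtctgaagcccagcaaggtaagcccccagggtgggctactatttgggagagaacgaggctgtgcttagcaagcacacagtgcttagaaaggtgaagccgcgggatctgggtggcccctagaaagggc
Hoxd4 promoter, chr2:74721728-74722027 (+ strand): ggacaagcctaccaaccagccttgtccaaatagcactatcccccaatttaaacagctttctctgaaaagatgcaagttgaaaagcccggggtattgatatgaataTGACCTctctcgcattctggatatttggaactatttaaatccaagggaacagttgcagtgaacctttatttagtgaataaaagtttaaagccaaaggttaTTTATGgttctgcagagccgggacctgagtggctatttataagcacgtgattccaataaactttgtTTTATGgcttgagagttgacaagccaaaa
Hoxd8 promoter, chr2:74704365-74704664 (+ strand): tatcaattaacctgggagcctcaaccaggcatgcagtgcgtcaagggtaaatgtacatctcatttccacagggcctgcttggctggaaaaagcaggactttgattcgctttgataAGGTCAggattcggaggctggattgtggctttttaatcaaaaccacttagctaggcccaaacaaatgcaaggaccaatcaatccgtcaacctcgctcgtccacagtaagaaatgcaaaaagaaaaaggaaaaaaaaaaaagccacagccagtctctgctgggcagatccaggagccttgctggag
AGGTCA was present in 4 of the 8 promoters (Hoxa5, Hoxd3, Hoxd4 and Hoxd8) and in 16.3% of all 32851 promoters of this length. TTTATG was present in 3 of them (Hoxa7, Hoxd3 and Hoxd4), against 11.9% of all promoters. TGACAG was found in Hoxa2 and Hoxa3 (19.2% of all promoters), TGATNNAT in Hoxa2 (8.85%), and the second half-site form AGTTCA in none of the 8 (4597 of all promoters). No motif overlapped another in the 4 promoters shown.

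After cells with at least 3000 UMIs and at most 10% mitochondrial UMIs were kept, the libraries held 3165 to 11109 cells, with a median of 6788 to 18473 UMIs per cell and 31500092 to 234893903 UMIs in all. Over all cells kept at this step, Prrx1 and Twist1, transcription factor genes of limb mesenchyme, were at 201 to 647 and at 86.8 to 535 CPM in the 8 libraries. Other cells were present too: the proximal E16.5 library held 619 epithelial-like cells and 325 of a keratin-led cluster, with Krt14 at 286 and Krt5 at 151 CPM, and the whole limb libraries held 302 and 284 myogenic-like cells. The whole limb libraries had little reporter, with tdTomato at 3.88 and 4.21 CPM against 454 in the sorted E11.5 library, and Hic1 stood at 0.702 and 0.741 against 23.7. Stage, kit and library cannot be told apart among the sorted samples: the v2 kit was used up to E13.5 and v3 from E14.5, the distal E16.5 counts came from Cell Ranger 6.0.1 and the other sorted counts from 3.0.2. At most 48 cell barcodes were shared by any pair of libraries. Nothing says that the whole limb replicates came from separate embryos. Their p-values thus measure only the spread between these libraries, or the spread of a difference between them where sums were paired by library. Each tested comparison had 1 residual degree of freedom.

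Only Hoxa5, Hoxa7, Hoxd4 and Hoxd8, 4 of the 9 genes, were above 10 CPM in any library. Library levels cover all cells outside epithelial clusters, and since UMIs are counted from transcript ends they are not divided by gene length. Hoxa7 was at 32.5, 12.9, 8.44 and 9.54 CPM from E11.5 to E14.5, at 14.1 in the proximal and 6.70 in the distal E16.5 library, and at 38.7 and 35.3 in the whole limbs. Its highest sorted level was that of E11.5, and its proximal E16.5 level lay above those of E12.5 to E14.5. Hoxa5 was at 27.4, 8.53, 6.32 and 4.95 from E11.5 to E14.5, at 2.95 and 2.96 in the proximal and distal E16.5 libraries, and at 37.5 and 42.6 in the whole limbs. Each later stage was lower than the one before, and the 2 segments at E16.5 had overlapping intervals.

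Hoxd8 had another course. From E11.5 to E14.5 it was at 23.6, 21.8, 7.01 and 16.8 CPM, then at 20.9 in the proximal and 11.7 in the distal E16.5 library, against 14.9 and 13.1 in the whole limbs. The E11.5 and E12.5 values had overlapping 95% Poisson intervals (21.9 to 25.3 and 20.4 to 23.2), as did E12.5 and proximal E16.5. Hoxd4 was at 12.9, 7.19, 3.08 and 3.40 from E11.5 to E14.5, at 4.45 in the proximal and 2.51 in the distal segment, and at 15.2 and 16.1 in the whole limbs. These 4 genes gave between 140 and 4163 UMIs per library.

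Hoxa3 ranged from 1.57 in proximal E16.5 cells to 3.87 at E11.5 among the sorted libraries, and was at 7.85 and 9.04 CPM in the whole limbs. Hoxa2 was at 1.11 at E11.5, at 0.256 to 0.507 in the later sorted libraries, and at 3.63 and 3.25 in the whole limbs. Hoxa6 lay between 0.463 (E13.5) and 1.30 (E11.5) in sorted cells and at 2.40 and 3.15 in whole limbs. Hoxa4 lay between 0.158 (E12.5) and 0.921 (E11.5) and at 1.15 and 1.64 in whole limbs, and Hoxd3 between 0.352 (E13.5) and 1.19 (proximal E16.5), with 0.977 and 1.21 in whole limbs. For these 5 genes the sorted libraries held 7 to 316 UMIs each.

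**Figure D1:**
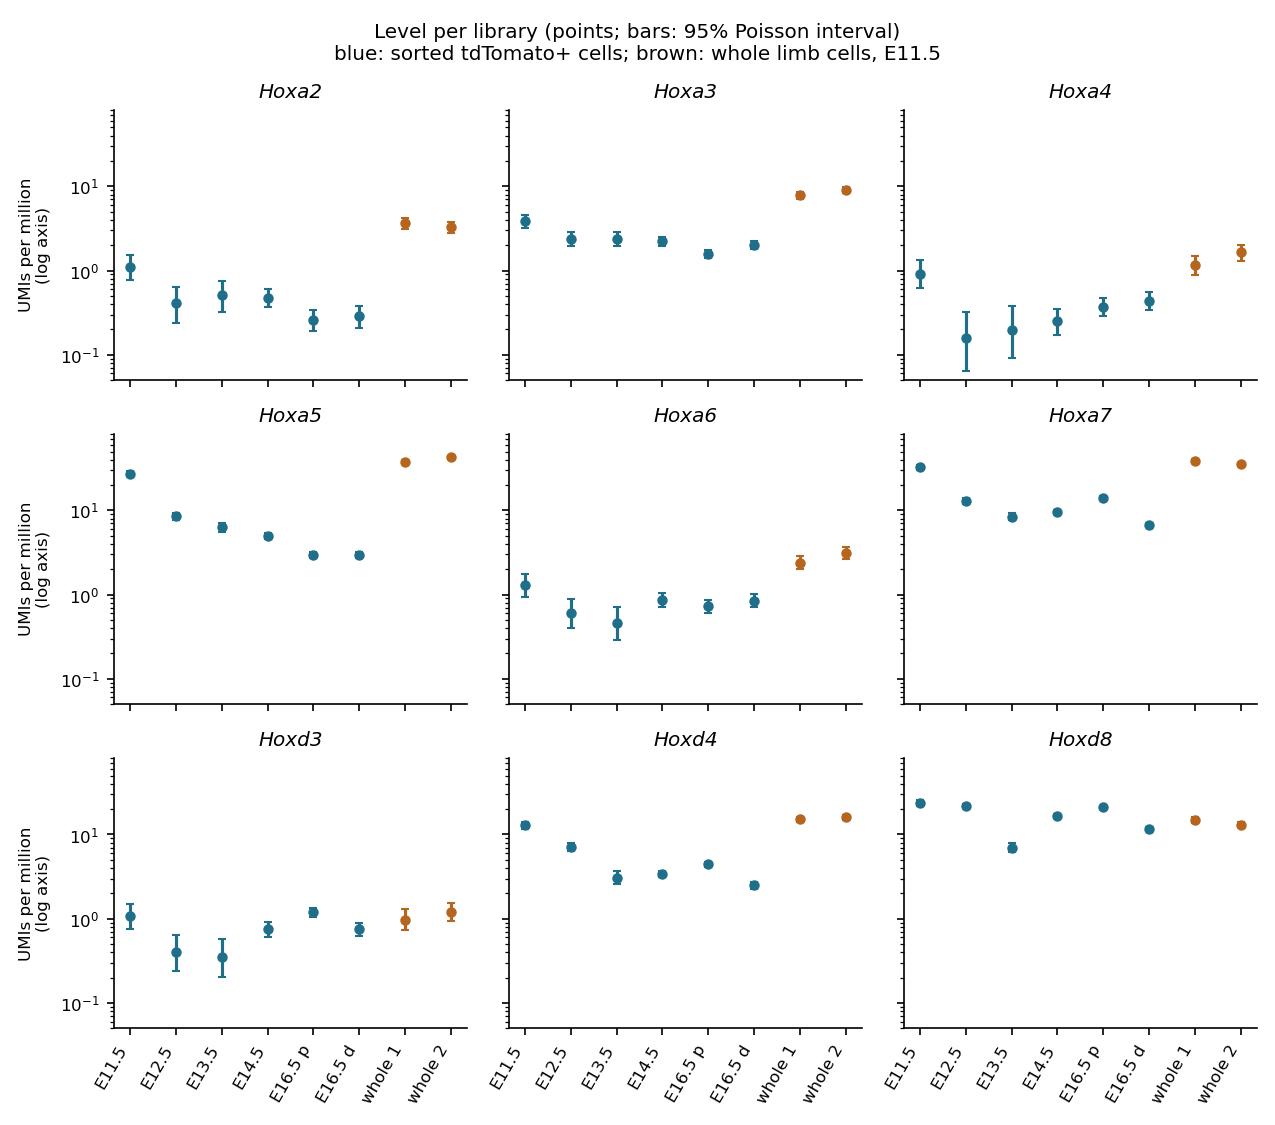
CPM (log axis) of each of the 9 genes in each library, blue for the 6 sorted tdTomato+ libraries (E16.5 p is proximal, E16.5 d distal) and brown for the 2 whole limb libraries, with bars for the exact 95% Poisson interval, which covers counting error only. Hoxa5 was at 27.4 at E11.5 and at 2.95 and 2.96 at E16.5, while Hoxd8 was at 20.9 in the proximal E16.5 library.

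Few cells held a UMI of any of these genes. With each cell thinned to 3000 UMIs, 26.4% of sorted E11.5 cells had a UMI of at least 1 of the 9 genes, against 8.62% of E13.5, 9.89% of E14.5, 12.6% of proximal and 7.66% of distal E16.5 cells, and 29.2% and 29.9% of whole limb cells. UMIs of 2 or more of the genes in the same thinned cell were seen in 3.29% of sorted E11.5 cells and in 4.77% and 4.84% of whole limb cells. For Hoxd8, 6.95% of thinned sorted E11.5 cells had a UMI, against 18.5% before thinning, and the highest count in a cell was 5. In the proximal E16.5 library, Hoxd8 was seen in 5.94% of thinned cells outside epithelial clusters and in 0.808% of the 619 epithelial-like cells. Of all UMIs of the HoxA cluster, the 6 genes made up 13.3% at E11.5, 3.99% at E13.5, 13.2% in proximal and 5.92% in distal E16.5 cells, and 16.7% and 17.7% in the whole limbs. The 3 HoxD genes made up 11.7% of HoxD UMIs at E11.5, 4.45% at E13.5, 30.8% in proximal and 6.92% in distal E16.5 cells, and 5.50% and 5.73% in the whole limbs. The high proximal share went with a low cluster total, a HoxD sum of 86.2 CPM against 217 distally.

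The first comparison asks how the Hic1 lineage, soon after it is labelled, differs from limb mesenchyme as a whole. At E11.5, 6 of the 9 genes were lower in sorted MPs than in whole limb mesenchyme, and Hoxd8 was higher. Over all 15107 genes tested by edgeR's quasi-likelihood test, 26.4% were called lower and 26.9% higher in sorted cells at an adjusted p under 0.05, so the background of calls was large. The edgeR fold changes below include scaling factors between libraries (TMM). The CPM beside them do not, so a fold change can differ in size from the ratio of the CPM. Epithelial, myogenic, muscle fibre gene-rich, endothelial and glial clusters were left out, which removed no sorted cell, and the lone sorted library was taken to vary like the 2 whole limb libraries. No cluster was named erythroid-like at the clustering resolution used, of 1, and none was removed, while at resolution 2 one held 28 and 3 cells of the whole limb libraries. The 8 erythroid markers summed to 0.381 CPM in the sorted library and to 288 and 234 CPM in the whole limbs, and their part in the result was not tested. The study's methods describe the whole limb cells as lineage-negative, and the antibodies of its lineage gate included Ter119, a marker of red blood cells.

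Among the HoxA genes, the pharyngeal arch gene Hoxa2 had 1.11 CPM in the sorted library against 3.12 and 3.16 in the whole limbs, a log2 fold change of -1.68 ± 0.27 (SE, edgeR, adjusted p = 5.91e-09). Its sorted value lay below both whole limb values. Hoxa3 was at 3.87 against 7.33 and 8.78 (log2 -1.24 ± 0.18, edgeR adjusted p = 1.73e-10), and Hoxa6 at 1.30 against 2.44 and 3.22 (log2 -1.30 ± 0.27, edgeR adjusted p = 5.74e-06). Hoxa5, the most abundant of these lowered genes in whole limbs, was at 27.4 against 37.9 and 43.5 (log2 -0.75 ± 0.12, edgeR adjusted p = 5.72e-09). Hoxa7 was at 32.5 against 36.7 and 33.6, a small difference (log2 -0.30 ± 0.12, edgeR adjusted p = 0.0291) that was lost with DESeq2 (adjusted p = 0.109) and limma-voom (adjusted p = 0.0608). Hoxa4 was at 0.921 against 0.941 and 1.59 and did not pass the test (log2 -0.64 ± 0.35, edgeR adjusted p = 0.106).

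Among the HoxD genes, Hoxd8 had 23.6 CPM in the sorted library against 15.7 and 13.9 in the whole limbs (log2 0.49 ± 0.13, edgeR adjusted p = 0.000547). Hoxd4 was at 12.9 against 15.6 and 15.99 (log2 -0.48 ± 0.14, edgeR adjusted p = 0.00242). Hoxd3 was at 1.08 against 1.00 and 1.25 and did not pass (log2 -0.25 ± 0.34, edgeR adjusted p = 0.560). Hoxd8 thus went the other way from Hoxd4, while its posterior neighbour Hoxd9 was also higher in sorted cells (97.3 against 68.7 and 60.7; log2 0.41 ± 0.09). Beyond Hoxd9 the fold changes fell step by step, -0.52 for Hoxd10, -1.23 for Hoxd11, -2.98 for Hoxd12 and -4.21 for Hoxd13, which came to 7.56 CPM in sorted cells against 133 and 114.

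The result for Hoxd8 depended on which cells were set side by side. When both sides were limited to proximal-gated cells (cells with a UMI of Meis1 or Meis2 and none of Hoxa13, Hoxd13 or Hoxd12), Hoxd8 did not pass and its sign turned (log2 -0.24 ± 0.22, edgeR adjusted p = 0.436). Hoxd4 was still called lower in sorted cells there, and Hoxa6 and Hoxa7 did not pass, so that 4 of the 9 genes were called. Leaving out the mitotic-like clusters took the sorted library from 3165 to 1864 cells and removed no whole limb cell, since no whole limb cluster was named mitotic-like. With the sides made unlike in this way, Hoxd4 was at log2 -0.19 ± 0.15 (edgeR adjusted p = 0.299).

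**Figure D2:**
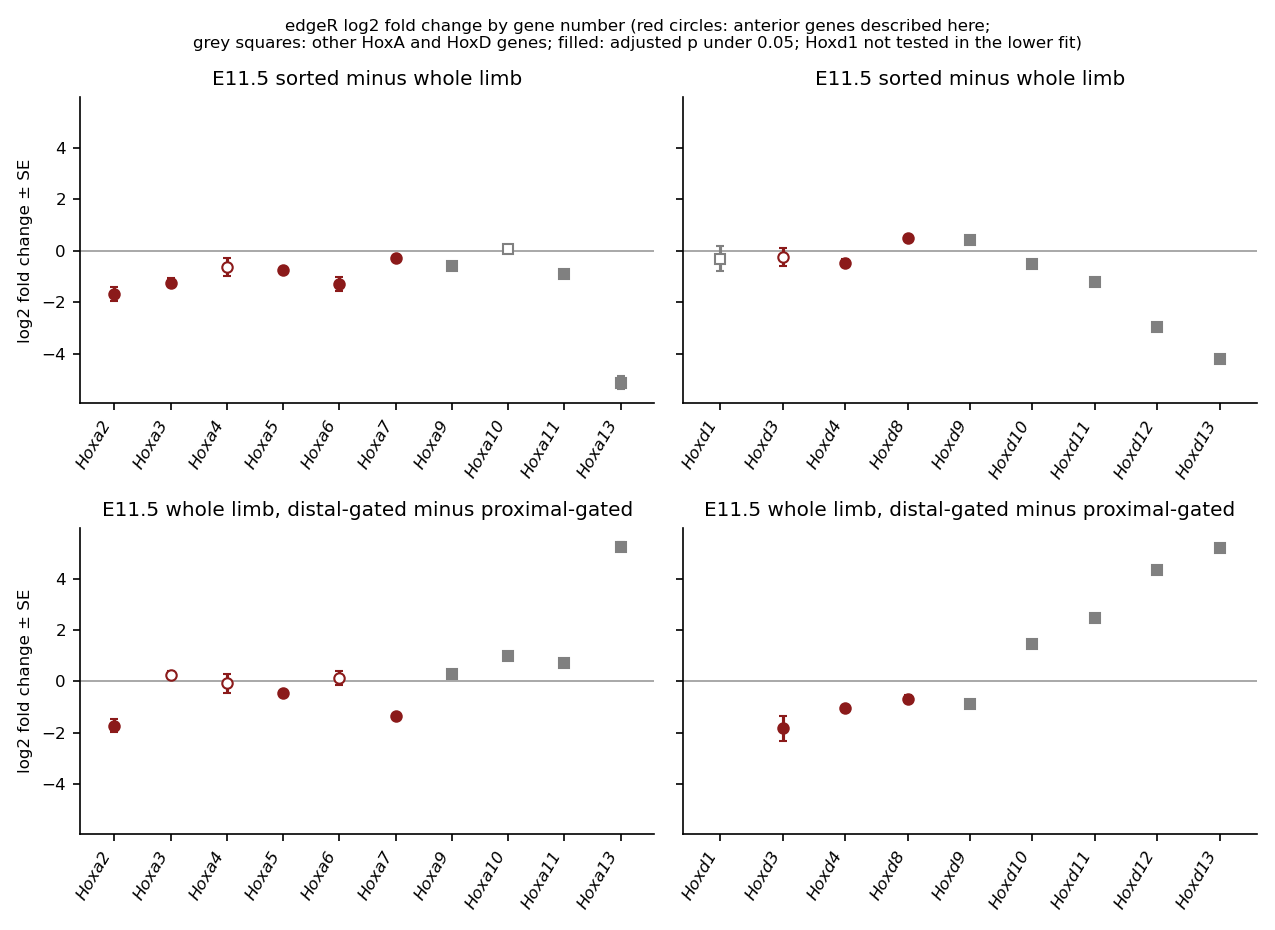
edgeR log2 fold change ± SE of HoxA (left) and HoxD (right) genes by gene number, for sorted against whole limb cells at E11.5 (top) and for distal-gated against proximal-gated whole limb cells (bottom); red circles are the 9 anterior genes, grey squares the other genes, and filled symbols passed an adjusted p under 0.05. In the top row Hoxd8 and Hoxd9 lie above 0 (0.49 and 0.41), and in the bottom row all 3 anterior HoxD genes lie below it.

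The second comparison asks how the genes are placed along the proximal-distal axis of the E11.5 limb. In whole limb mesenchyme, cells were gated as distal (a UMI of Hoxa13 or Hoxd13 and none of Meis1 or Meis2) or as proximal, and sums per gate and library were compared with the library as a block. There were 1045 and 1004 distal-gated and 1079 and 1248 proximal-gated cells. None of the gate genes is a member, but Hoxa13, Hoxd13 and Hoxd12 are Hox genes of the same clusters. Of the 9 genes, 6 were lower in distal-gated cells and none was higher, while 25.2% of the 12140 genes tested were called lower and 26.2% higher.

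Hoxa7 showed the clearest difference. It was at 24.9 and 20.6 CPM in the distal-gated cells of whole 1 and whole 2 and at 63.7 and 56.6 in the proximal-gated cells (log2 -1.36 ± 0.08, edgeR adjusted p = 2.12e-58). All 3 HoxD genes were lower distally. Hoxd4 was at 8.68 and 9.34 against 19.2 and 18.9 (log2 -1.04 ± 0.13, edgeR adjusted p = 6.86e-14), and Hoxd8 at 9.74 and 6.84 against 14.3 and 12.9 (log2 -0.67 ± 0.15, edgeR adjusted p = 1.53e-05). Neither pair of values overlapped. Hoxd3, with 5 and 6 UMIs in the distal-gated cells, was at 0.439 and 0.578 against 2.12 and 1.65 (log2 -1.83 ± 0.48, edgeR adjusted p = 0.000412). DESeq2 called neither Hoxd3 (adjusted p = 0.208) nor Hoxd8 (adjusted p = 0.127).

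Within HoxA the pattern did not follow gene order. Hoxa2 was at 1.49 and 2.70 CPM distally and at 6.93 and 7.20 proximally (log2 -1.72 ± 0.24, edgeR adjusted p = 4.98e-12), whereas its neighbour Hoxa3 was at 9.39 and 11.9 against 9.87 and 8.64 (log2 0.25 ± 0.15, edgeR adjusted p = 0.159). The Hoxa3 values of the 2 gates overlapped. Hoxa5 was at 36.3 and 45.9 against 54.4 and 59.5, a smaller difference than that of Hoxa7 (log2 -0.43 ± 0.07, edgeR adjusted p = 2.81e-08). Hoxa4 (log2 -0.07 ± 0.36, edgeR adjusted p = 0.886) and Hoxa6 (log2 0.12 ± 0.26, edgeR adjusted p = 0.723) did not pass, with 9 to 40 UMIs in each sum. On the posterior side, Hoxa9 was slightly higher distally (log2 0.31), Hoxa10 by 0.98 and Hoxa11 by 0.73, while Hoxd9 was lower (log2 -0.86) and Hoxd10 higher (log2 1.45).

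Across stages each group was 1 library with no replicate and no test was run. A gene was called where it differed at least 2-fold with an exact 95% interval of the ratio that excluded 1, among genes at 1 CPM or more in either library. E11.5 and E13.5 were both made with the v2 kit but dissociated with different enzymes, so stage and dissociation cannot be told apart. Between them, 7 of the 8 genes measured at that level were lower at E13.5 and none was higher. Of these 7, Hoxa2, Hoxa6 and Hoxd3 reached 1 CPM only at E11.5, so the rule could call them only lower. Of all 13262 genes, 4.9% were lower and 10.3% higher by the same rule. Hoxa5 was lower by 4.33-fold (95% interval 3.79 to 4.97), Hoxd4 by 4.17-fold (3.43 to 5.09), Hoxa7 by 3.85-fold (3.42 to 4.34) and Hoxd8 by 3.37-fold (2.95 to 3.85). The rarer Hoxd3, Hoxa6 and Hoxa2 were lower by 3.06-, 2.81- and 2.19-fold, and Hoxa3 by 1.64-fold (1.26 to 2.15), short of the limit. Hoxa4, below 1 CPM at both stages, went from 29 to 9 UMIs. These intervals cover counting error only. Other genes of the clusters went other ways: Hoxa10 was at 306 CPM at E11.5 and 316 at E13.5, while Hoxd13 was called higher, at 7.56 and 25.6.

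The timing differed between genes. Hoxa5 and Hoxa7 had most of their decline by E12.5 (27.4 to 8.53 and 32.5 to 12.9 CPM), whereas the Hoxd8 intervals of E11.5 and E12.5 overlapped and its E13.5 level was lower. The same order was seen within a single class: in early mesenchymal progenitor-like cells, Hoxa5 was at 27.3 at E11.5 and 8.29 at E12.5, and Hoxd8 at 26.9 and 25.5. Hoxd8 was uneven among E12.5 cells. With that library clustered alone, it was at 72.1 in 423 distal limb mesenchyme-like cells, 17.9 in mitotic-like and 14.8 in perichondrial-like cells. Mitotic-like cells, found at every stage, gave 27.7, 8.80, 5.92 and 4.28 for Hoxa5 from E11.5 to E14.5, and 20.6, 18.1, 6.87 and 8.46 for Hoxd8. With the mitotic-like clusters left out, 7 genes were again called lower between E11.5 and E13.5, with Hoxa4 in place of Hoxa2. The dissociation enzymes changed between E12.5 and E13.5, and their part in these values was not tested.

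The E14.5 forelimb and the proximal E16.5 segment were both made with the v3 kit. Between them none of the 6 genes measured at 1 CPM or more passed the 2-fold limit in either direction, while 9.48% of 13353 genes were lower and 7.31% higher. The values went different ways: Hoxa5 went from 4.95 to 2.95 CPM and Hoxa3 from 2.21 to 1.57, while Hoxa7 went from 9.54 to 14.1, Hoxd8 from 16.8 to 20.9, Hoxd4 from 3.40 to 4.45 and Hoxd3 from 0.755 to 1.19. All 6 intervals of these ratios excluded 1. Hoxd3 reached 1 CPM only in the proximal E16.5 library, so it could enter only as higher there. The E14.5 sample was the whole forelimb and the E16.5 segment lacked the autopod, so stage and segment cannot be told apart here. Over the same samples Hoxa13 went from 16.7 to 0.508 and Hoxd13 from 58.8 to 1.99. Cell types differed too. There were 5 chondrocyte-like and 3 muscle fibre gene-rich cells at E14.5, against 1056 and 2904 in the proximal E16.5 library. With those clusters left out Hoxd3 passed the limit as higher, as did 7.42% of all genes.

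**Figure D3:**
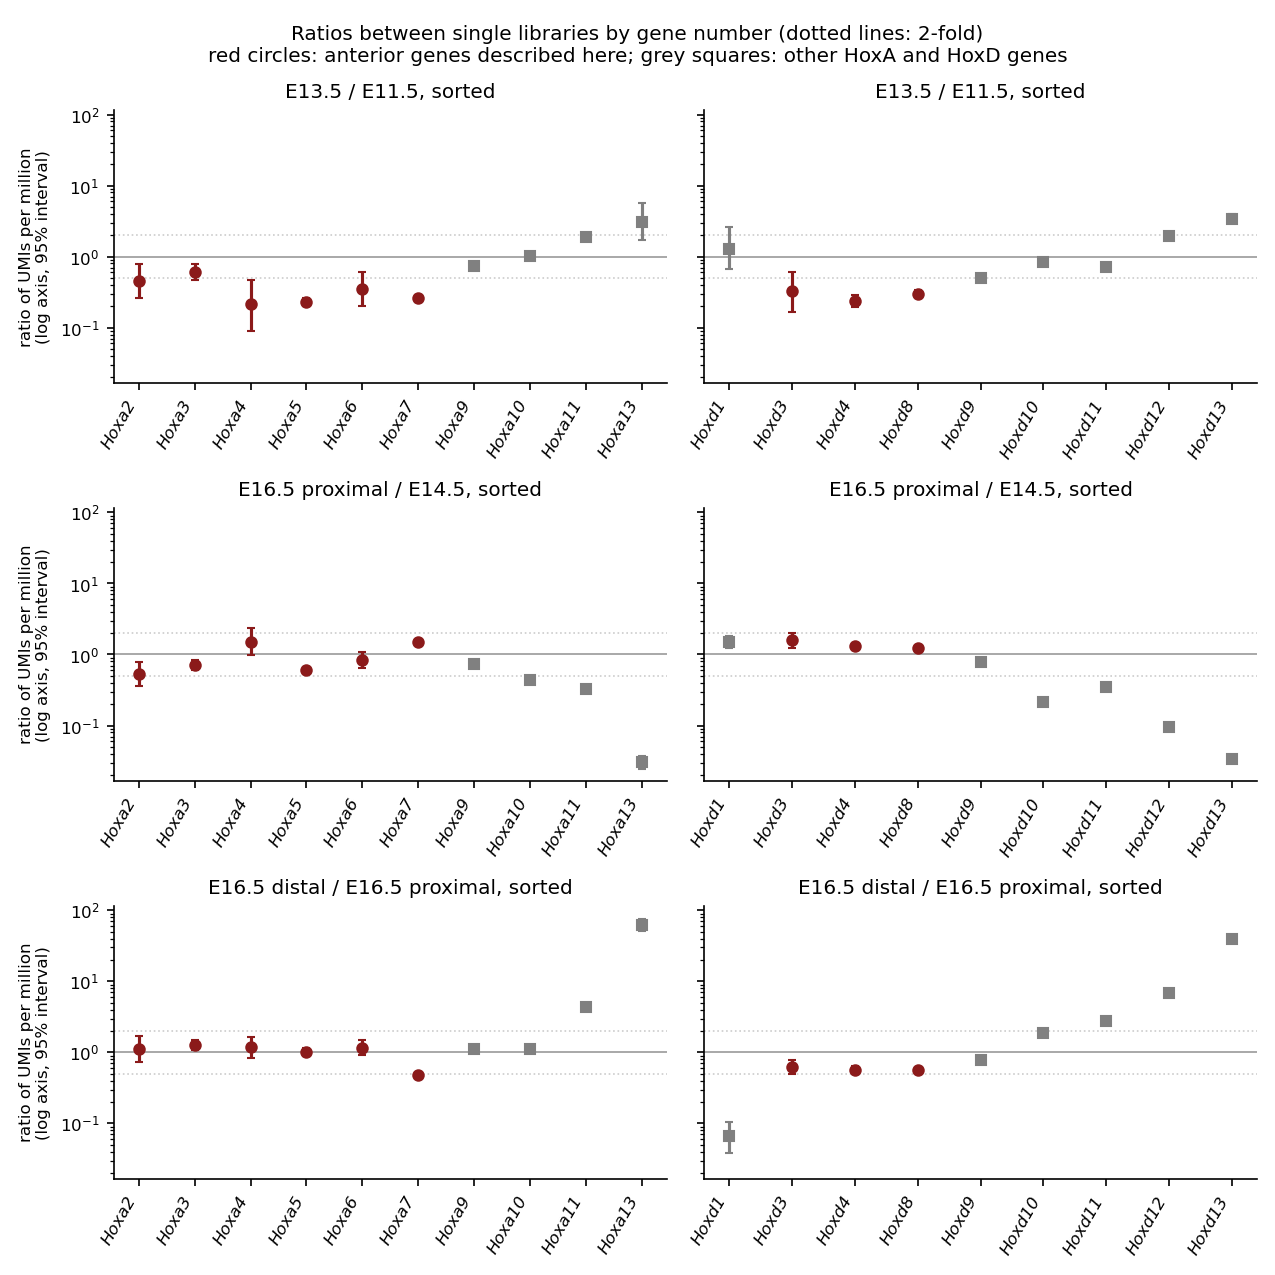
Ratio of CPM between single libraries (log axis, bars for the exact 95% interval of counting error) for HoxA (left) and HoxD (right) genes by gene number, red circles for the 9 anterior genes and grey squares for the others, with dotted lines at 2-fold. The anterior genes sit below 1 between E11.5 and E13.5 in the top row, and Hoxa7, Hoxd3, Hoxd4 and Hoxd8 sit below 1 in the distal over proximal ratio of the bottom row.

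At E16.5 the distal and proximal segments of the same stage and kit were set side by side. Hoxa7 was lower distally, at 6.70 against 14.1 CPM, a 2.11-fold difference (95% interval 1.96 to 2.27), and was the 1 gene of the 6 measured at that level that passed the 2-fold limit, against 4.06% of all 13238 genes lower and 6.43% higher. With the epithelial cells kept, or with equal weight to each of 9 classes, Hoxa7 was at a log2 ratio of -0.92 and did not reach the limit. All 3 HoxD genes were lower distally by less: Hoxd8 by 1.78-fold (1.69 to 1.89), Hoxd4 by 1.78-fold (1.58 to 2.01) and Hoxd3 by 1.60-fold (1.28 to 2.01). Hoxd3 reached 1 CPM only in the proximal library, so it could enter only as lower distally. Hoxa5 showed no difference beyond counting error (2.96 against 2.95, ratio interval of proximal to distal 0.88 to 1.13), and Hoxa3 was higher distally at 2.01 against 1.57. The proximal sample held 1056 chondrocyte-like cells and 2904 cells of a cluster led by muscle fibre genes, against 245 and 204 distally, and the 13 muscle fibre markers, all with UMIs in both, summed to 121 CPM proximally and 33.2 distally. With these clusters left out the HoxD differences were larger, at log2 -1.09 for Hoxd8, -1.29 for Hoxd4 and -1.20 for Hoxd3, and 4 genes passed the limit as lower distally, against 3.78% of all 13211 genes lower and 6.23% higher with the same cells. An unnamed cluster that was mostly distal, led by Fam81a, Grp and Mgat4c, was kept in both. It held 1866 distal and 21 proximal cells, with Hoxd3 at 0.182 CPM in the distal ones. Its part in the segment differences was not tested.

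Among named classes of at least 50 cells, dermal fibroblast-like cells had the highest Hoxd3, Hoxd4 and proximal Hoxd8 levels at E16.5. They were named from 8 fixed dermal markers, Col7a1 and Rspo1 among them, with all Hox genes left out of the clustering, and at E16.5 they formed essentially 1 cluster with cells of both segments. In the 1151 proximal cells Hoxd8 was at 62.9 CPM (59.4 to 66.5), Hoxd4 at 21.5 (19.5 to 23.7) and Hoxd3 at 6.28 (5.20 to 7.50). In the 1791 distal cells the same genes were at 22.0, 6.05 and 1.55. The ratio of distal to proximal was 0.351 for Hoxd8 (0.318 to 0.386), 0.281 for Hoxd4 (0.235 to 0.336) and 0.246 for Hoxd3 (0.171 to 0.349). Hoxa7 went with them, at 18.4 proximally and 5.58 distally (ratio 0.303), but Hoxa5 did not, at 1.83 and 2.18. The pattern was not limited to the anterior genes described here. Their HoxD neighbour Hoxd1 was at 11.3 in the proximal cells of this class (217 UMIs) and at 0.235 in the distal ones (7 UMIs). Thinned to 3000 UMIs, 17.6% of proximal and 6.42% of distal dermal fibroblast-like cells had a Hoxd8 UMI, against 0.808% of proximal epithelial-like cells.

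Another cluster, led by replication-dependent histone genes with Col7a1 among its leading genes, was left unnamed and had the same profile, with Hoxd8 at 58.5 proximally and 25.2 distally and Hoxd4 at 22.6 and 8.48 CPM. At E14.5, dermal fibroblast-like cells (1140) already had Hoxd8 at 62.6, Hoxd4 at 10.7 and Hoxd3 at 2.21. These cells lay in another cluster than those of E16.5, led by Calb1, Rspo1 and Nrgn and made up to 98.8% of E14.5 cells, so the stages were compared by class name and not within 1 cluster. From E14.5 to proximal E16.5 the Hoxd8 ratio was 1.00 (0.93 to 1.09) in that class, while Hoxd4 was 2.00-fold (1.69 to 2.37) and Hoxd3 2.84-fold (2.00 to 4.10) higher. Outside these 2 groups Hoxd4 stayed below 3 CPM in every E16.5 class compared, although with each library clustered alone it was at 4.16 in distal mitotic-like cells.

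Hoxd8 was more widely spread, at 14.5 and 10.6 CPM in proximal and distal fibroblast-like cells, 16.5 and 15.6 in tenocyte-like cells, 16.1 and 7.62 in chondrocyte-like cells and 6.03 and 1.39 in perichondrial-like cells. The fibroblast-like cells of the proximal and distal samples fell mostly into different clusters, one led by Wnt2, Ly6a and Fabp4 and the other by Cldn3, Pi16 and Btc. Over the 9 classes with at least 50 cells in both segments, the Hoxd8 interval lay below 1 in 6 and above 1 in 1, the muscle fibre gene-rich cluster (14.9 proximally, 24.6 distally). That exception turned with each library clustered alone, at 16.4 proximally and 9.87 distally, and perichondrial-like cells were then at 15.99 and 10.8. In the joint clustering the exception held at resolutions 0.5 (14.8 and 24.5) and 2 (15.2 and 24.4). Hoxa7 had a ratio under 1 in 9 of 9 classes, with the interval below 1 in 6, but with each library clustered alone it was at 8.88 proximally and 9.70 distally in fibroblast-like cells. Hoxa3 went the other way, with the interval above 1 in 4 classes and below 1 in 0. Hoxa5 differed beyond counting error in 1 class, the muscle fibre gene-rich cluster, at 3.71 proximally and 8.48 distally, which became 3.54 and 4.82 with each library clustered alone. For Hoxd4 and for Hoxd3 the interval lay below 1 in 2 classes each, the dermal fibroblast-like cells and the histone-led cluster, and the ratio itself was under 1 in 6 and in 4 of the 9. Hoxa2, Hoxa4 and Hoxa6 gave no class whose interval excluded 1.

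**Figure D4:**
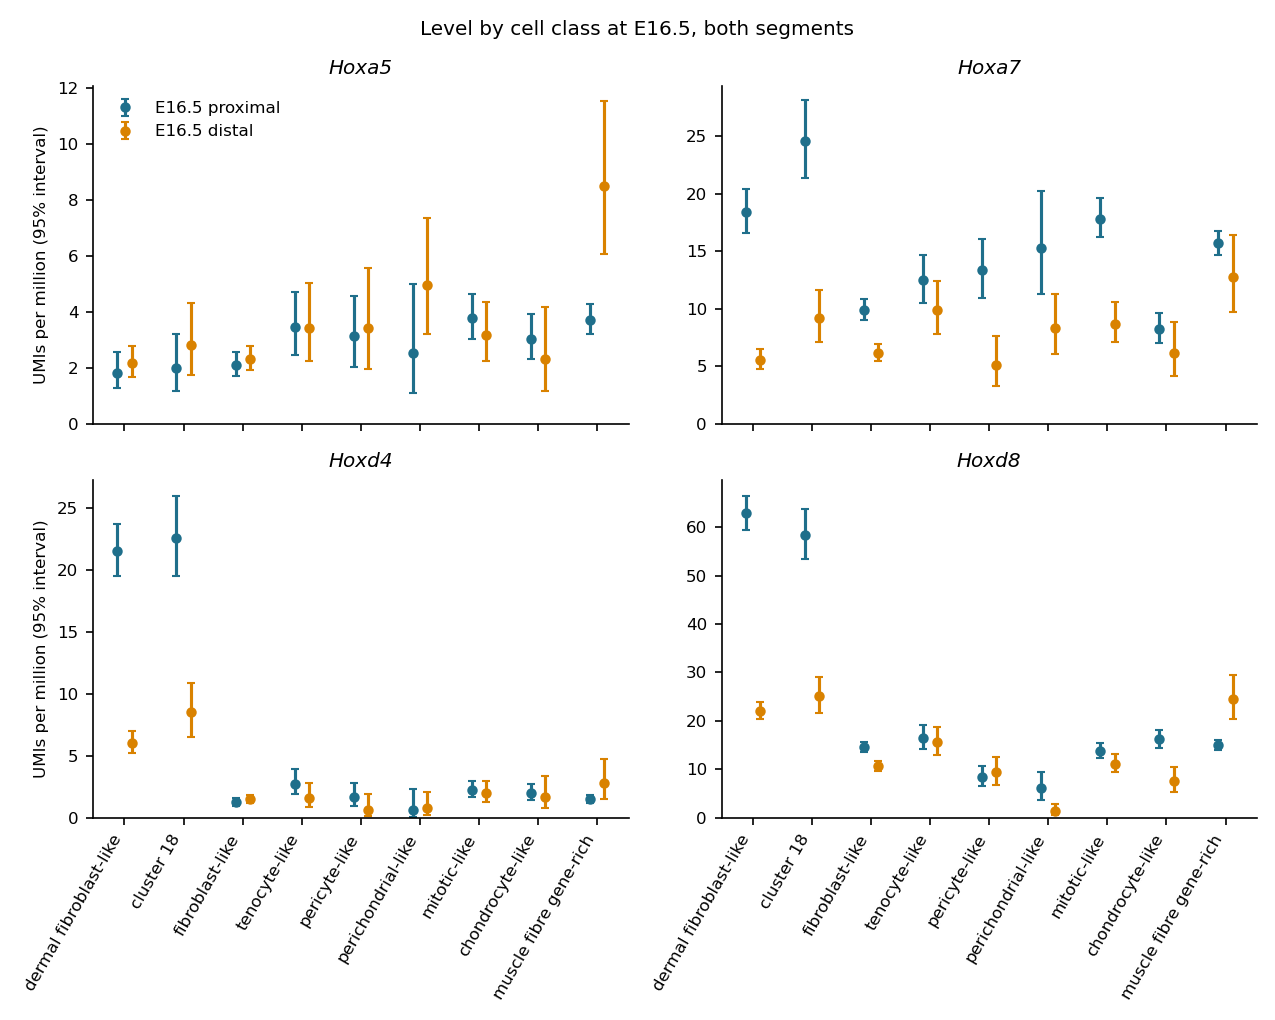
CPM of Hoxa5, Hoxa7, Hoxd4 and Hoxd8 in each cell class at E16.5, blue for the proximal and orange for the distal segment, with bars for the exact 95% Poisson interval; cluster 18 is the unnamed cluster led by histone genes. Hoxd4 is at 21.5 in proximal dermal fibroblast-like cells and below 3 in the other named classes of at least 50 cells, and Hoxa5 is at 1.83 and 2.18 in dermal fibroblast-like cells of the 2 segments.

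In whole limbs at E11.5, the 9 genes did not all peak in the same class among classes of at least 50 cells, from clusters made without Hox genes. Proximal limb mesenchyme-like cells, led by Pax1 and Irx3 or Gsc, had the highest Hoxa5 in both libraries, at 66.7 and 73.0 CPM, against 24.2 and 28.3 in chondrocyte-like cells. Hoxa2 was also highest there, at 11.3 and 9.95, against 0.472 and 0.705 in chondrocyte-like cells (3 and 5 UMIs). Hoxa7 was at 72.2 and 65.7 in the same proximal cells, at 75.6 and 65.4 in an unnamed cluster led by Lum, Kera and Tcerg1l, and at 64.7 and 62.7 in myogenic-like cells, the migrating muscle precursors. Hoxd8 had another pattern, at 15.3 and 10.1 in proximal limb mesenchyme-like cells, 5.65 and 4.31 in myogenic-like cells and 24.1 and 24.5 in chondrocyte-like cells. Hoxd4 was about as high in chondrocyte-like (20.8 and 20.6) as in proximal limb mesenchyme-like cells (20.6 and 22.3). Low levels of both were seen in clusters led by Tfap2b, with Hoxd8 at 5.06 and 3.15 and Hoxd4 at 6.88 and 6.09 in the one led by Tfap2b, Lmo2 and Cdc42ep3.

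Across 60 library-by-class groups of at least 200 cells, the genes fell into looser and tighter pairs, described here by Pearson's r of log2(CPM + 1); the groups share libraries, kits and depth, so no p is given. Hoxa3 and Hoxa5 were the closest pair (r = 0.87), Hoxa7 and Hoxd4 had r = 0.80, and Hoxa3 and Hoxd8 were the least alike (r = -0.17). The genes most like Hoxa5 were E130308A19Rik (r = 0.94), Rnf44 (0.94) and Lin28b (0.94), the RNA-binding regulator of let-7. Those most like Hoxa7 were Igdcc3 (0.82), Yaf2 (0.82) and Arl6ip6 (0.82), and those most like Hoxd4 were Lix1 (0.90), Peli1 (0.85) and Igdcc3 (0.84). For Hoxd8 they were its chromosomal neighbour Hoxd3os1, which is antisense to Hoxd3 and Hoxd4 (0.76), Vax2 (0.71) and Rsrc1 (0.67). Among genes reaching 10 CPM in a group, to which this ranking was limited, Hoxa2 was nearest to Hoxa3 (0.78), Hoxa5 (0.75) and Elovl2 (0.72), while the rarer Hoxa4 had r = 0.79 with it, Hoxa3 after Hoxa5 to Pnpt1 (0.85) and Cul1 (0.84), and Hoxd3 to Hoxd1 (0.73), Hmgn3 (0.67) and Frem1 (0.65). Hoxa4 and Hoxa6 stayed below 5 CPM in every group and were not ranked.

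The other Hox clusters and the partners of these genes were counted in the same fits. In sorted against whole limb cells, 7 of 8 HoxB genes and 6 of 8 HoxC genes tested were lower and none was higher. Of 9 TALE cofactors 5 were lower, Meis2 among them, and 2 were higher (Meis3 and Pknox1). Of 13 retinoic acid genes 6 were higher, among them Aldh1a2 and Rdh10, which make retinoic acid, and 4 lower, among them Cyp26b1, which degrades it. Between distal-gated and proximal-gated cells, 7 of 8 HoxB genes were lower distally and Hoxb9 was higher, 5 of 5 HoxC genes were lower, Cyp26b1 was higher and 8 of 12 retinoic acid genes were lower; Meis1 and Meis2 were part of the gate. First-fit median log2 fold changes were -0.64 for the 9 anterior genes, -2.00 for HoxB, -1.56 for HoxC and 0.02 for all genes. In the second fit they were -0.67, -4.81, -3.74 and 0.00. The other HoxA and HoxD genes had a median of -0.83 in the first fit, below that of the anterior genes, and of 1.22 in the second. The shares of all genes called lower and higher in each fit are given above. By the 2-fold rule at E16.5, 6 of 6 HoxB and 4 of 4 HoxC genes, and Meis1, Meis2, Meis3 and Pbx4, were lower distally, while Pknox2 was higher. Between E11.5 and E13.5, 5 of 5 HoxB genes, 2 of 3 HoxC genes and Meis1 and Meis2 were lower at E13.5, while Meis3 was higher. From E14.5 to proximal E16.5, 6 of 6 HoxB genes were higher, while none of the 9 TALE cofactors passed the limit.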

How the data were processed

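The deposited UMI count tables of 8 libraries (10x Chromium 3' v2 or v3) were used as the authors made them with Cell Ranger against a modified mm10 genome (3.0.2 for 5 sorted libraries, 6.0.1 for the distal E16.5 library, no version named in the files of the whole limb libraries). Barcodes and gene symbols were read as deposited. Cells with at least 3000 UMIs and at most 10% mitochondrial UMIs were kept. The sorted and the whole limb cells were clustered separately with scanpy 1.11.5 (2000 variable genes, 50 components, 25 neighbours, Leiden resolution 1), leaving out Hox, Meis1, Meis2, mitochondrial, transgene and sex-linked genes, and clusters were called "-like" from 3 or more fixed markers. Epithelial-like cells and a cluster led by Krt14, Krt5 and Krt15 were left out of the sums. That rule for the keratin-led cluster was chosen after seeing the data. Doublets were kept, and an alternative left out the highest Scrublet scores, 0.8% per 1000 cells, because the automatic limit marked under 0.5% of cells in 7 of 8 libraries.

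UMIs were summed per library and tested with edgeR 4.0.16 (quasi-likelihood, TMM, filterByExpr, Benjamini-Hochberg over all genes tested, threshold 0.05), with DESeq2 1.42.0 and limma-voom 3.58.1 as alternatives. The fits were tested on simulated data. For the distal and proximal gates the library was a block, since both sums came from the same library. The common coefficient of variation estimated by edgeR was 1.79% with this block and 6.76% without it. The small p-values of that comparison rest on this small estimated spread. Comparisons between single sorted libraries were not tested. Intervals are exact 95% Poisson or Clopper-Pearson intervals and cover counting error only. The genes, lists and comparisons were chosen with earlier results of these data known. The genes named are the 9 members, the other HoxA and HoxD genes beside them, and for each member at 5 CPM or more in a group the 3 genes most like it. The cell classes and clusters named were picked after their values were seen. The lists of HoxB, HoxC, TALE and retinoic acid genes were given by counts. Some genes of these lists and clusters are not reported here.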

Additional observations from a re-analysis of the deposited data

Results flagged for a closer look

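At E16.5, with the sorted libraries clustered together, Hoxd8 differed between the segments in opposite directions in different clusters. The distal level was 0.231 times the proximal level in perichondrial-like cells (7 and 19 UMIs) and 1.65 times it in the muscle fibre gene-rich cluster (116 and 815 UMIs), and both counting intervals excluded 1. With each library clustered alone the opposition was gone, with Hoxd8 lower distally in both, at 15.99 proximally and 10.8 distally in perichondrial-like cells and at 16.4 and 9.87 in the muscle fibre gene-rich cluster. At resolution 2 of the joint clustering it remained, at 5.60 and 2.99 in perichondrial-like and 15.2 and 24.4 in muscle fibre gene-rich cells. At resolution 0.5 these were at 6.29 and 10.4 (11 distal cells) and at 14.8 and 24.5. Each segment was 1 library, so the difference between the clusters was not tested.

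The epithelial-like cells and the keratin-led cluster were left out of the sums that the comparisons rest on (the alternative with all filtered cells aside), yet they held UMIs of some HoxA genes above the level of the cells kept in the same library. At E14.5 the 31 cells of the keratin-led cluster had Hoxa5 at 76.6 CPM (57.5 to 99.9, 54 UMIs) and Hoxa4 at 15.6 (11 UMIs), against 4.95 and 0.249 in the cells kept, and the 38 epithelial-like cells had Hoxa5 at 23.9. In the proximal E16.5 library the keratin-led cluster (325 cells) had Hoxa5 at 8.16, Hoxa4 at 2.10 and Hoxa2 at 1.36, against 2.95, 0.372 and 0.256, and the 619 epithelial-like cells had Hoxa4 at 0.931. Other genes were lower there than in the cells kept: Hoxd8 was at 1.36 and 1.33 against 20.9, and Hoxa7 at 5.81 and 2.58 against 14.1. The epithelial-like cells of this library were also lower in Hoxa5 (1.61 against 2.95) and Hoxa3 (0.502 against 1.57). No replicate of these cells was available, and the intervals cover counting error only.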

How the results depend on the processing

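The 7 genes called between sorted and whole limb cells at E11.5 became 4 with proximal-gated cells only, 4 with no filter on low counts, and 5 to 7 under the other alternatives. Without scaling factors (added after seeing the data) the median of all genes shifted from 0.02 to 0.20 on the log2 scale, 69.2% of all calls were higher against 50.5%, and 5 of the genes were called. Over all genes, 4071 higher and 3986 lower calls became 2019 and 2852 with DESeq2, 2353 and 2489 with no filter, and 1973 and 2024 in proximal-gated cells. The only call that turned was Hoxd8 in proximal-gated cells (log2 -0.24). With either whole limb library left out no test was possible, and values are ratios of CPM with no scaling factors. The uncalled Hoxd3 then ranged from -0.21 to 0.10, against -0.063 with no scaling factors and both libraries kept. Between the gates, 6 genes were called in the fit with the replicate block and 6 in the fit without it, 4 with DESeq2 and 4 after thinning. Over all genes, 3175 higher and 3064 lower calls became 1340 and 1220 with DESeq2 and 2033 and 1997 after thinning. Uncalled values turned sign for Hoxa6 with at least 2 gate UMIs (log2 -0.085), and with 1 library left out, again with no scaling factors, for Hoxa4 (-0.84 to 0.21, against -0.11 unscaled with both kept) and Hoxa3 (-0.073 to 0.47, against 0.21). Hoxd8 kept its sign there under every alternative run.

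The 1 gene called between the E16.5 segments became 2 after thinning, 0 with epithelial cells kept, 4 with chondrocyte-like and muscle fibre gene-rich clusters left out, 4 with a limit of 1.5-fold and 2 with equal weight to each class. All of these were lower distally, where the share of all genes called lower was 4.06% at first and then 4.38%, 6.65%, 3.78%, 9.47% and 3.08%. The equal-weight count used the 2-fold limit with no interval, and its genes were Hoxd3 (log2 -1.02) and Hoxd4 (-1.14) and no longer Hoxa7 (-0.92). Between E14.5 and proximal E16.5, 0 became 1 after thinning (Hoxa5, lower, as were 10.6% of all genes), 1 with those clusters left out (Hoxd3, higher, as were 7.42%) and 2 at 1.5-fold (both of these, where 23.7% were lower and 13.2% higher). Between E11.5 and E13.5 the count stayed between 5 and 8, all lower, where 4.9% to 14.4% of all genes were lower. In dermal fibroblast-like cells at resolution 2, the levels were 71.5 (proximal) and 27.1 (distal) for Hoxd8, 27.6 and 9.71 for Hoxd4 and 22.7 and 8.65 for Hoxa7, and with each library clustered alone the distal levels were 24.3, 7.59 and 7.01. Genes below about 2 CPM rest on few UMIs, and depth limits what can be said of them.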
